A study of Mus musculus with 2 samples.

Results

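The expression of 40 genes of the Polycomb complexes, of Trithorax-group cofactors and of histone methylases and demethylases was examined in fetal liver (FL) HSCs with and without ESAM, an adhesion molecule of endothelial cells and HSCs. The genes were taken by symbol from the deposited expression tables, and all 40 of 40 symbols were found among 23284 gene rows. LSK CD48- cells of E14.5, which lack lineage markers, carry Sca-1 and c-Kit and are rich in HSCs, were compared between WT fetuses and ESAM-null fetuses, which carry a conventional homozygous deletion of Esam in all cells. There was 1 library per genotype, and the number of fetuses or cells pooled for each, their background strain and their sex were not given in the sources used here. As for culture, the treatment label describes sorted cells placed in colony medium, whereas the paper describes the libraries as those of sorted cells, and they were used here as the latter.

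Polycomb proteins keep developmental genes silent through a pair of enzyme complexes. Polycomb repressive complex 2 (PRC2) methylates histone H3 on lysine 27, and PRC1 binds this mark or unmethylated CpG islands and ubiquitinates histone H2A. Trithorax-group complexes such as COMPASS oppose them by methylating H3 on lysine 4. In blood formation, Ezh2 is known for its role in FL HSCs and Bmi1 for HSC self-renewal.

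Expression was given as FPKM, a fragment number divided by transcript length and by a normalized library size, so that levels of different genes can be set side by side. Among low genes with a single transcript length, 64.2% of WT values and 71.1% of ESAM-null values lay within 0.05 of a whole read. The worth of a read was taken from these steps, and the approximate reads of all genes with a length summed to 9539690 for WT and 11659606 for ESAM-null. Every ratio below is ESAM-null to WT, with a 95% exact (Clopper-Pearson) interval from these approximate reads that covers counting error only, because PCR copies are not separate molecules. Without replicates no p-value was given, and a difference outside its counting interval has no check against the spread between animals or libraries. In sorted cells pooled for a library, fewer cells of a kind and less RNA per cell cannot be told apart. Esam, the check of the labels, was 118 FPKM in WT against 12.1 FPKM in ESAM-null, 9.69-fold lower (8.39 to 11.2), and which exons the deletion removes was not examined. The sorting markers Kit and Ly6a (Sca-1) and the HSC-associated genes Cd34 and Procr lay between 94.4 and 230.0 FPKM in WT and between 76.4 and 240.3 FPKM in ESAM-null, while Cd48, the gene of the antigen sorted against, was 16.6 and 22.0 FPKM. Of markers of other cells, the summed FPKM in WT and ESAM-null was 7.10 and 14.2 for 5 hepatocyte genes, 22.4 and 21.9 for 5 macrophage genes, 18.6 and 9.83 for 4 mature erythroid genes, 9.15 and 4.54 for the 6 lymphoid and granulocyte genes with a row and 24.1 and 16.7 for 5 endothelial genes. Members of the hepatocyte, macrophage and endothelial sums differed in direction. Cd68 was 14.2 FPKM in WT against 19.98 FPKM in ESAM-null, while the other macrophage genes were lower, with C1qb at 3.85 and 1.94 FPKM. Pecam1 was 20.8 and 12.1 FPKM, and Kdr and Lyve1 were also lower. Cdh5 was higher, at 0.954 and 3.33 FPKM, as was Stab2, at 0.0401 and 0.492 FPKM. Afp and Apoa1 were higher, and Alb and Ttr lower. Of the defining markers, Fgb, Cd3e and Ms4a1 were listed at 0 in both libraries. Listed at 0 in ESAM-null only were Alb, Ttr, Adgre1, C1qa, Vcam1, Epb42 and Lyve1. Over the whole table, genes above 0 numbered 14305 in WT and 13039 in ESAM-null, so fewer genes in general were detected in ESAM-null. The part of such other cells in the results was not tested.

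All 40 genes were expressed in both libraries, from Phc3 at 1.202 FPKM in WT against 1.72 FPKM in ESAM-null to Dpy30 at 275 and 395 FPKM. The median level was 21.6 FPKM in WT against 18.1 FPKM in ESAM-null. Of the 40 genes, 17 differed by less than 1.2-fold, 30 by less than 1.5-fold and 38 by less than 2-fold. Genes at least 2-fold lower in ESAM-null were 2 of 40, Cbx2 and Ash1l, against 12.8% of all 12066 genes with at least 1 FPKM in 1 library. None of the 40 was at least 2-fold higher, against 7.42% of all genes. At 1.5-fold, 8 of 40 were lower, against 21.8% of all genes, and 2 of 40 were higher, against 17.4%. Large ratios were more frequent among low genes, with 16.5% of all genes lower where the mean of both libraries was between 3 and 10 FPKM and 0.723% where it was between 30 and 100 FPKM. The 2 lower members were both among the 10 members in the first of these ranges, and none of the 12 members in the second passed 2-fold.

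**Figure D1:**
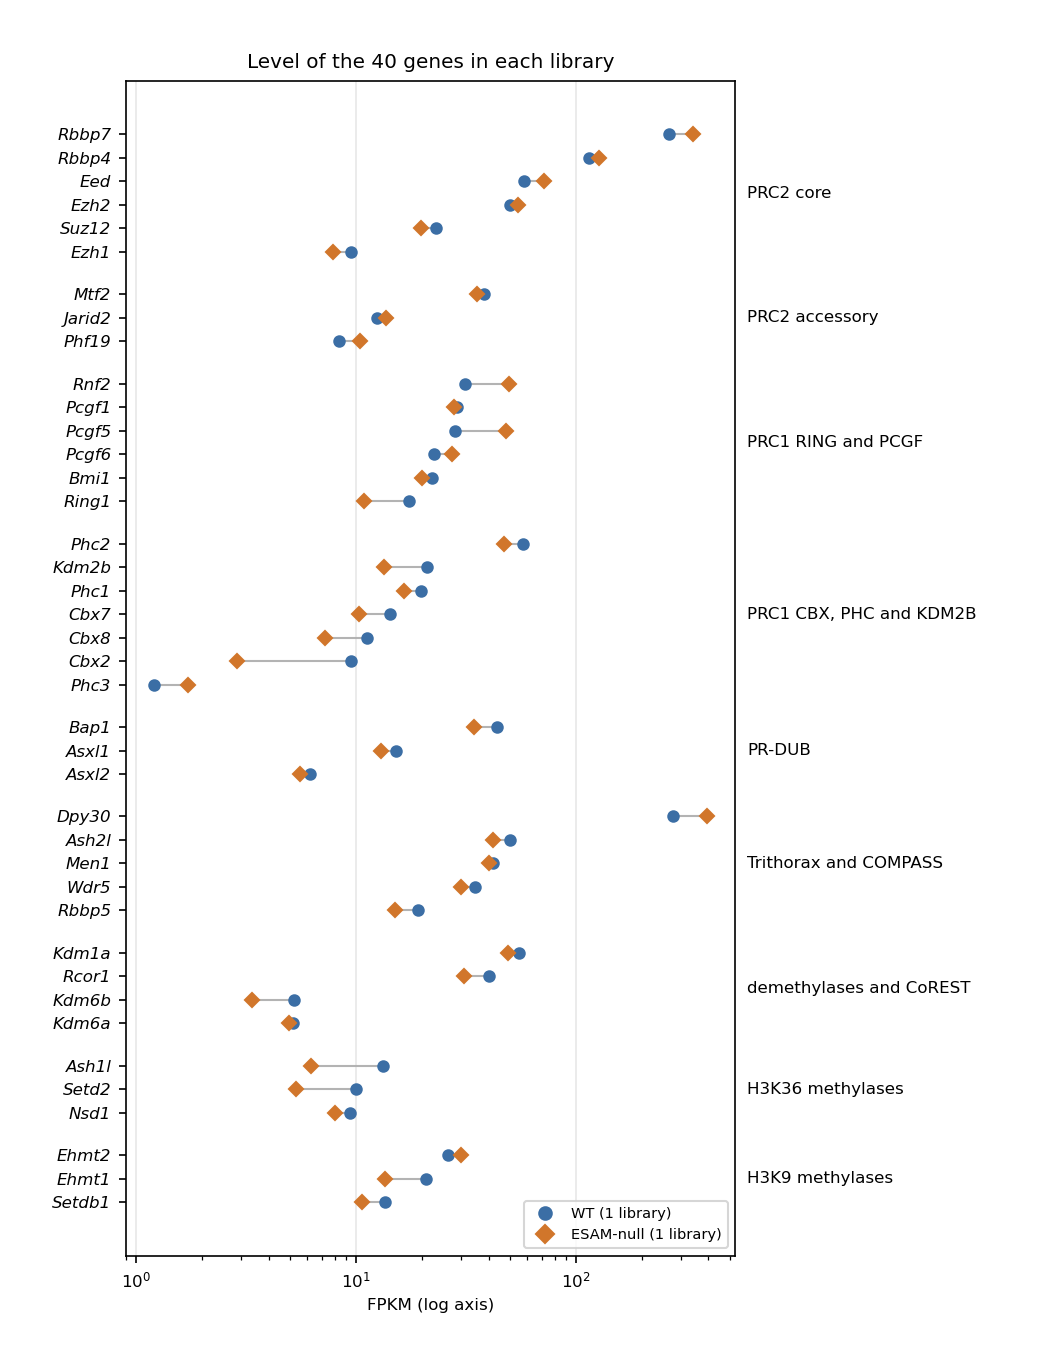
FPKM (log axis) of the 40 genes in the WT library (circles) and the ESAM-null library (diamonds), grouped by complex and ordered by the WT level within each group. Symbols of a gene mostly sit side by side, with the widest gap at Cbx2 (9.48 and 2.87 FPKM), and Dpy30, Rbbp7 and Rbbp4 lie above 100 FPKM in both libraries.

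Ratios below 1 were found for 28 of 40 genes, against 50% of all genes, and the median log2 ratio of the 40 genes was -0.22, against 0.01 for all genes. Relative to genes of like transcript length, 24 of 40 were below and the median was -0.09. The counting interval excluded 1 for 22 lower and 10 higher genes and included it for 8. The share of all genes with such an interval was not computed, so these counts are not a trait of the 40 genes. The fewest reads behind a gene were 37 in WT and 57 in ESAM-null, both for Phc3, and the most were 5048 and 7112, both for Rbbp7. Rescaling both libraries to equal totals moves every log2 ratio alike by -0.28, so that the median was -0.50 for the 40 genes and -0.27 for all genes, with 7 of the 40 above 1 and Setd2 also past 2-fold.

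**Figure D2:**
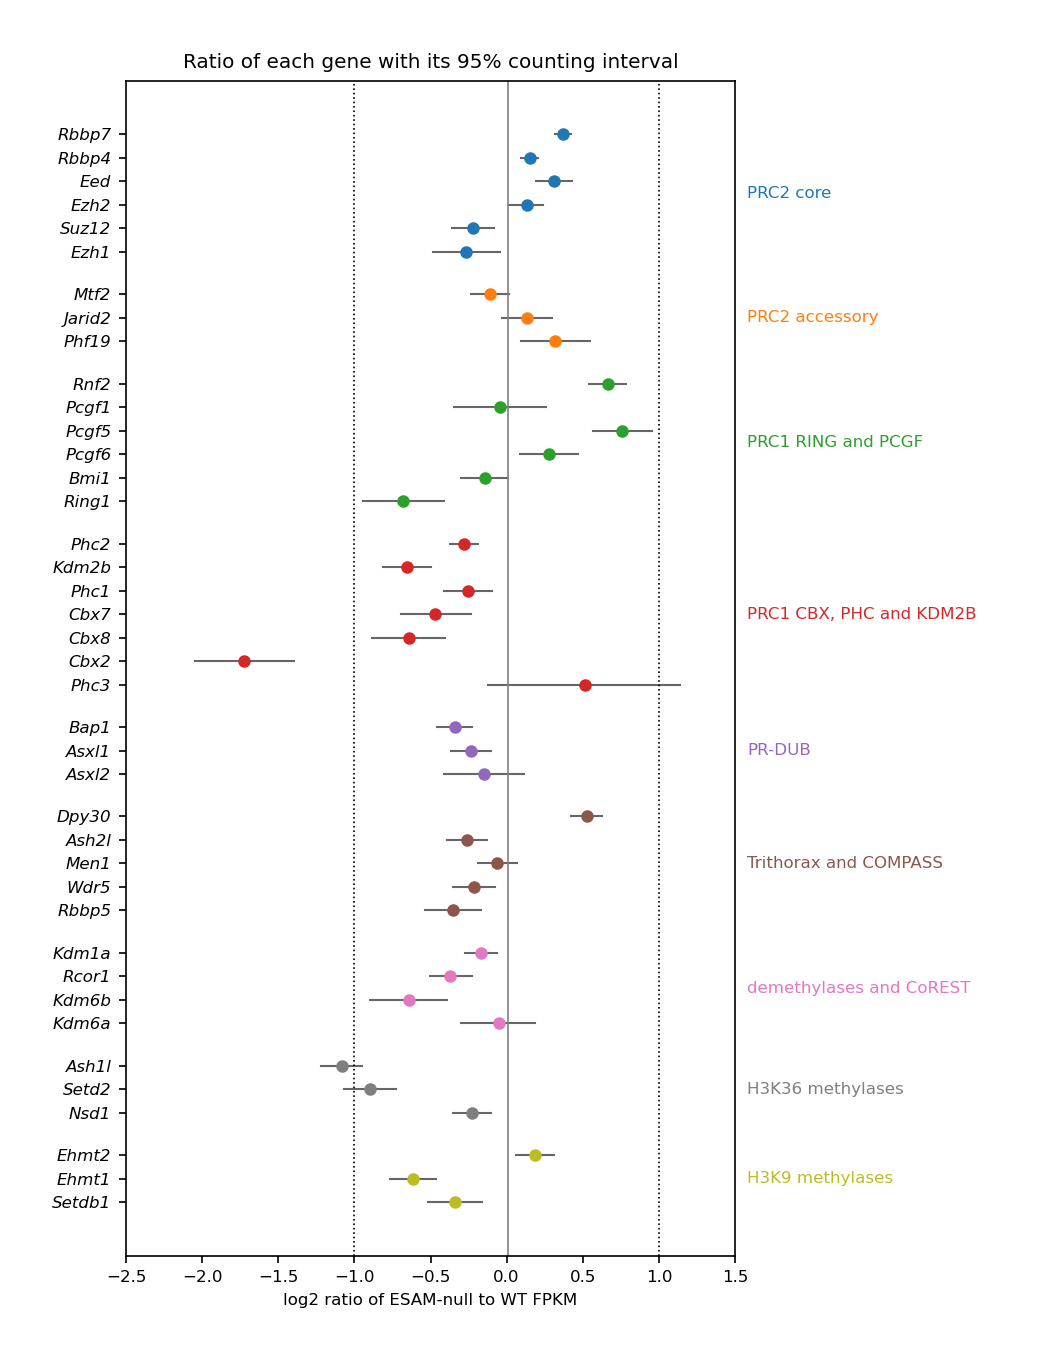
Log2 of the FPKM ratio (ESAM-null over WT) for each of the 40 genes (1 library per genotype), coloured by complex, with bars for the 95% counting interval. Dotted lines mark 2-fold, the grey line is the median of all genes (0.01), Cbx2 lies alone on the left at -1.72, and Pcgf5 and Rnf2 are farthest to the right at 0.76 and 0.66.

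Of the 6 genes of the PRC2 core, 4 were higher in ESAM-null, none by 2-fold, and 2 had a ratio below 1, beside 50% of all genes. Of the 4 higher genes, 2 (Ezh2 and Rbbp4) were below 1 on libraries rescaled to equal totals, which moves all genes alike. Ezh2, the methylase of dividing cells, was 49.9 FPKM in WT against 54.6 FPKM in ESAM-null, 1.09-fold higher (interval 1.01 to 1.18). Its paralogue Ezh1, a weaker methylase also made in resting cells, was 9.47 and 7.87 FPKM, 1.203-fold lower (1.029 to 1.401). The Ezh2 level was thus 5.27 times that of Ezh1 in WT and 6.94 times in ESAM-null, and this shift of 1.32-fold had a counting interval of 1.11 to 1.56.

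Eed, which reads the methyl mark, was 57.8 FPKM in WT against 71.8 FPKM in ESAM-null. Suz12, the scaffold of the complex, was 23.1 and 19.8 FPKM. The histone-binding subunits Rbbp4 and Rbbp7, which PRC2 shares with deacetylase complexes, were 115 and 264 FPKM in WT against 127 and 341 FPKM in ESAM-null. Rbbp7 had the narrowest relative counting error, at 1.29-fold higher (1.25 to 1.34). Ezh2 is known as a gene of cycling cells, and of 16 cell cycle genes listed, 8 had a ratio above 1 and none passed 2-fold (median log2 ratio 0.06).

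Of the accessory subunits, which guide PRC2 to its sites, the 3 among the 40 genes differed by less than 1.5-fold. Jarid2 was 12.5 FPKM in WT against 13.7 FPKM in ESAM-null, and Mtf2, a Polycomb-like protein, was 38.1 and 35.3 FPKM, both with intervals that include 1. Phf19, another Polycomb-like protein, was 8.33 and 10.4 FPKM, 1.247-fold higher (1.07 to 1.46). Outside the 40 genes, their relative Phf1 was 9.64 and 3.03 FPKM, 3.18-fold lower (2.39 to 4.28), and Aebp2, another accessory subunit, was 25.6 and 16.6 FPKM, 1.54-fold lower (1.35 to 1.75). Phf1 made up 17.2% of the summed FPKM of the 3 Polycomb-like genes in WT and 6.21% in ESAM-null.

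PRC1 is built around a RING protein, and here the RING paralogues differed in direction. Rnf2 (RING1B), the main ubiquitin ligase of PRC1, was 31.3 FPKM in WT against 49.6 FPKM in ESAM-null, 1.58-fold higher (1.46 to 1.73). Ring1 (RING1A) was 17.4 and 10.8 FPKM, 1.60-fold lower (1.33 to 1.92). Rnf2 was therefore 1.80 times the level of Ring1 in WT and 4.58 times in ESAM-null, a 2.54-fold shift with a counting interval of 2.07 to 3.10. This ratio of paralogues within a library does not depend on how the libraries are scaled. The Rnf2 transcript is 3160 bp and 40.4% GC and that of Ring1 2034 bp and 60.7% GC. Relative to genes of like length the log2 ratios were 0.70 and -0.75, and relative to genes of like GC content 0.62 and -0.46, so both kept their direction.

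Rnf2 lies on chromosome 1 (151469398 to 151500991) and Ring1 on chromosome 17 (34020792 to 34024680). Their promoters, and those of Ezh2 and Ezh1, are shown because these paralogues differed in level or ratio. Each is the 150 bases before a RefSeq start, on the strand of the gene, with CpG dinucleotides in capitals (GRCm38.p6, which has the coordinates of mm10). The Ezh2 stretch lies inside the range of the gene (47530274 to 47595270), before a start that is not the outermost. The starts of Ring1, Ezh2 and Ezh1 were matched to GENCODE transcripts, and that of Rnf2 was not.
Rnf2, chr1:151500992-151501141, minus strand: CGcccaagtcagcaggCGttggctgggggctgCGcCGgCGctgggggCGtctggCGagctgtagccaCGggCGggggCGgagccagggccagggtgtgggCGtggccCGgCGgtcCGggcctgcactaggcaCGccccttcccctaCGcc
Ring1, chr17:34024681-34024830, minus strand: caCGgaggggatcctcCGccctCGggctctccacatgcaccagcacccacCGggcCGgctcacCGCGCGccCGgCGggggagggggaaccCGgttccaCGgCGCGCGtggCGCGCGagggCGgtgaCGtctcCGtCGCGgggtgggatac
Ezh2, chr6:47595031-47595180, minus strand: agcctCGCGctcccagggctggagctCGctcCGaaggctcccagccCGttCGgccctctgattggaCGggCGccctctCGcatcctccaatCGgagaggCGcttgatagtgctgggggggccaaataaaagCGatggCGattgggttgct
Ezh1, chr11:101226464-101226613, minus strand: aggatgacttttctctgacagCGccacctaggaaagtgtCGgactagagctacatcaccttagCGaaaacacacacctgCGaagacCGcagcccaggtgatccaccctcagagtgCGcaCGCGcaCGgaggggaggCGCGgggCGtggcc

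CpG dinucleotides numbered 16 in the Rnf2 stretch, 23 in that of Ring1, 13 in that of Ezh2 and 12 in that of Ezh1. CpG-rich starts were common to the group: RefSeq promoters were found for 34 of the 40 genes (49 starts), with a median observed to expected CpG ratio of 0.83 over the 250 bases before the start, against 0.37 over all 32851 promoters. At least 0.6 was reached by 39 of the 49 starts, and by 34.0% of all promoters. The set of all promoters was not limited to expressed genes, whereas all 40 genes were expressed, and expressed genes alone were not compared. The Sp1-type motif GGGCGG, on either strand, was in 35 of 49 starts and in 32.7% of all promoters, and it holds a CpG itself, so that it was not independent of CpG content. CCAAT was in 20 of 49 starts, that of Ezh2 included, and in 33.8% of all, while TATAAA was in 1 of 49, that of Jarid2, and in 12.4% of all. An E2F-type motif (TTTCCCGC, TTTCGCGC, TTTGCCGC or TTTGGCGC) was in 2 of 49, those of Phf19 and Suz12, and in 1.86% of all. These are matches of letters and not binding sites.

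The PCGF subunits decide which kind of PRC1 is formed, and Pcgf5, of a variant PRC1, had the highest ratio of the 40 genes. It was 28.3 FPKM in WT against 47.9 FPKM in ESAM-null, 1.69-fold higher (1.48 to 1.94). Bmi1 (PCGF4), the subunit of canonical PRC1 in HSCs, was 22.1 and 20.03 FPKM, with an interval that includes 1. Pcgf5 was thus 1.28 times the Bmi1 level in WT and 2.39 times in ESAM-null, a shift of 1.87-fold (1.58 to 2.22). Their transcripts differ in length, at 1508 bp for Pcgf5 and 3594 bp for Bmi1. Relative to genes of like length the log2 ratios were 0.57 and -0.07, so the 2 lay closer together. Rnf2 (0.70) and Phc3 (0.60) were then above Pcgf5.

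Pcgf1, of the variant complex with KDM2B, was 28.8 FPKM in WT against 27.9 FPKM in ESAM-null. Pcgf6, of the variant complex with E2F6 and MGA, was 22.6 and 27.4 FPKM. Pcgf2 (MEL18), the close relative of Bmi1 and outside the 40 genes, was the rarest PCGF, at 1.18 FPKM in WT against 4.60 FPKM in ESAM-null. Its ratio of 3.90-fold higher (2.46 to 6.31) rests on about 24 and 101 reads. Over the 6 PCGF genes the summed FPKM was 112 and 140 (139.7), of which Pcgf5 made up 25.2% in WT and 34.3% in ESAM-null and Bmi1 19.8% and 14.3%.

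The CBX proteins, which bind methylated lysine 27 and bring in canonical PRC1, were lower for all 3 members measured. Cbx2 (chromosome 11, 119023019 to 119031275) was 9.48 FPKM in WT against 2.87 FPKM in ESAM-null, or 3.31-fold lower (2.63 to 4.13), the largest difference of the 40 genes. It rests on approximately 320 reads and 106 reads. It was the 33rd of the 40 genes by level in WT and the 39th in ESAM-null. Cbx8 was 11.3 and 7.24 FPKM, 1.56-fold lower (1.32 to 1.84), and Cbx7 14.2 and 10.3 FPKM, 1.38-fold lower (1.18 to 1.62). The 3' end of Cbx7 overlaps Apobec3 (116 and 77.2 FPKM), and reads in the overlap cannot be assigned without strand.

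Their relative Cbx6, which is not among the 40 genes, was 23.5 and 18.4 FPKM, 1.28-fold lower (1.18 to 1.39). Summed over these 4 CBX genes the level was 58.5 and 38.8 FPKM, of which Cbx2 made up 16.2% in WT and 7.40% in ESAM-null. Cbx7 was 1.503 times the level of Cbx2 in WT and 3.59 times in ESAM-null, a shift of 2.39-fold (1.81 to 3.15), whereas the Cbx7 to Cbx8 ratio of 1.26 and 1.42 shifted within counting error (0.898 to 1.42). Relative to genes of like transcript length the log2 ratio of Cbx2 was -1.66, and relative to genes of like GC content -1.62.

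**Figure D3:**
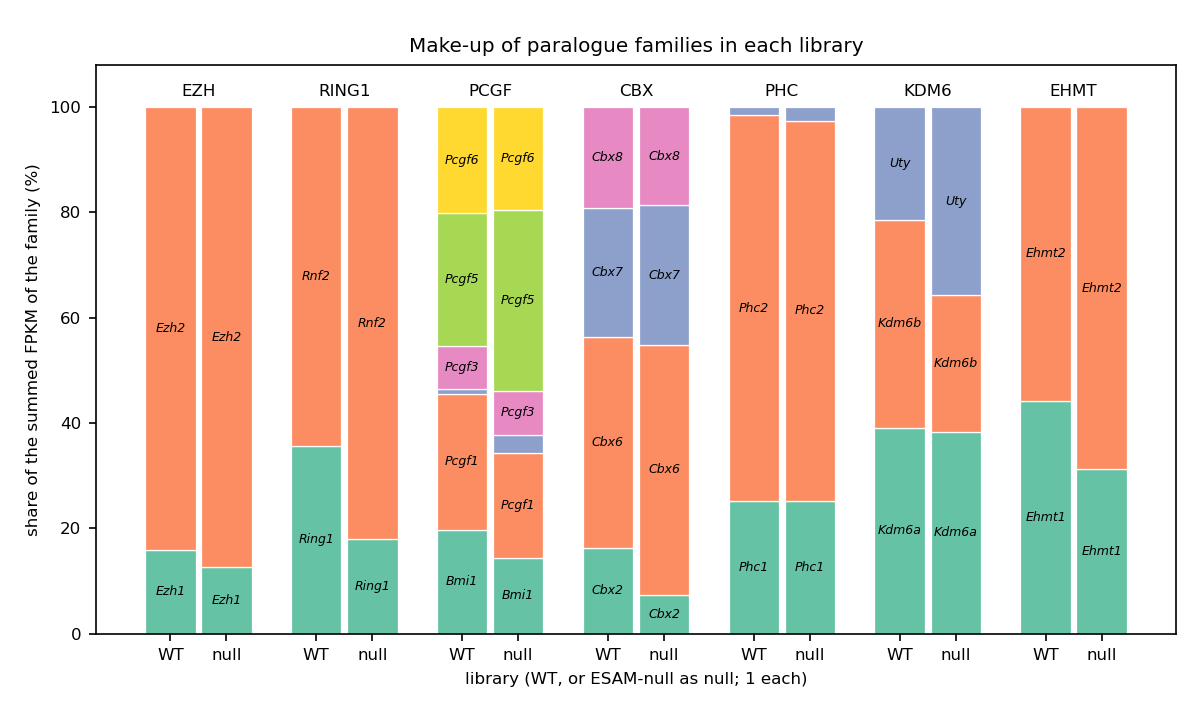
Share of each paralogue in the summed FPKM of its family (stacked bars from 0 to 100%), for the WT and ESAM-null libraries. Ring1 takes 35.7% of its family in WT and 17.9% in ESAM-null, Cbx2 takes 16.2% and 7.40% of the 4 CBX genes drawn, Pcgf5 takes 25.2% and 34.3%, and the PHC bars are nearly alike.

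The PHC proteins, which join PRC1 particles into larger assemblies, had nearly the same make-up in both libraries. Phc2, the main form, was 57.4 FPKM in WT against 47.2 FPKM in ESAM-null, and Phc1 was 19.6 and 16.5 FPKM, so that the Phc2 to Phc1 ratio of 2.92 and 2.86 differed within counting error (0.862 to 1.12 for the shift). Phc3 stood at the bottom of the 40 genes in both libraries, and its interval of 0.920 to 2.202 includes 1. Kdm2b, which binds CpG islands and recruits the PCGF1 complex, was 21.1 and 13.4 FPKM, 1.57-fold lower (1.41 to 1.76).

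The Polycomb deubiquitinase removes the mark that PRC1 sets, and the ratios of its 3 genes were below 1. Bap1, the enzyme, was 43.6 FPKM in WT against 34.4 FPKM in ESAM-null, 1.27-fold lower (1.17 to 1.37). Its partner Asxl1 was 15.2 and 12.96 FPKM, and Asxl2 was 6.16 and 5.57 FPKM, with an interval that includes 1. Relative to genes of like length the direction turned for both, with log2 ratios of 0.07 for Asxl1 and 0.03 for Asxl2. Asxl1 exceeded Asxl2 by 2.47 times in WT and 2.33 times in ESAM-null, a shift within counting error (0.768 to 1.16).

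The subunits that all COMPASS methylases share differed by less than 1.5-fold. Dpy30, the most abundant of the 40 genes, was 275 FPKM in WT against 395 FPKM in ESAM-null, 1.44-fold higher (1.34 to 1.54). Ash2l was 50.2 and 42.0 FPKM, Wdr5 34.8 and 30.1 FPKM, and Rbbp5 19.1 and 15.0 FPKM, each between 1.16 and 1.28-fold lower. Dpy30 thus stood apart from its 3 partners of the core in direction. Its transcript of 714 bp is the shortest of the 40 genes, and relative to genes of like length its log2 ratio was 0.00. Men1 (menin), which joins the MLL1 and MLL2 complexes, was 42.1 and 40.3 FPKM, with an interval that includes 1.

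Demethylases of lysine 27 were among the lowest of the 40 genes. Kdm6a (UTX) was 5.16 FPKM in WT against 4.97 FPKM in ESAM-null, with an interval of the fold from 0.879 to 1.23. Kdm6b (JMJD3), which many stimuli induce, was 5.24 and 3.36 FPKM, 1.56-fold lower (1.31 to 1.86). The Kdm6a to Kdm6b ratio was 0.985 in WT and 1.48 in ESAM-null, with an interval of 1.18 to 1.92 for the shift. Kdm6a is X-linked and its relative Uty Y-linked. Uty was 2.83 and 4.64 FPKM, but the other Y-linked genes Ddx3y (14.3 and 7.83 FPKM), Eif2s3y (32.8 and 20.8 FPKM) and Kdm5d (5.42 and 4.13 FPKM) were lower, and Xist was 5.51 and 8.34 FPKM. Xist and the Y-linked genes were thus found in both libraries, and the part of sex in the values of Kdm6a, Rbbp7 and other X-linked genes was not tested.

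Kdm1a (LSD1), which demethylates lysine 4 and is needed for blood cell differentiation, was 55.2 FPKM in WT against 49.2 FPKM in ESAM-null, 1.12-fold lower (1.04 to 1.21). Rcor1, its CoREST partner, was 40.05 and 31.0 FPKM, 1.29-fold lower (1.17 to 1.42). Gfi1 and Gfi1b, repressors that recruit this complex and are not among the 40 genes, were 53.4 and 23.5 FPKM in WT against 51.5 and 37.5 FPKM in ESAM-null.

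The methylases of H3 lysine 36, which oppose PRC2 on active genes, had a median log2 ratio of -0.90, and of -0.52 relative to genes of like length, where Ash1l was no longer 2-fold lower and Nsd1 was above 0. The transcripts of these 3 genes are the longest of the 40, from 8350 to 12784 bp. Ash1l (chromosome 3, 88950414 to 89079375) was 13.2 FPKM in WT against 6.25 FPKM in ESAM-null, 2.12-fold lower (1.93 to 2.32). Its 5' end overlaps Dap3 (28.6 and 39.2 FPKM), and reads there cannot be assigned without strand, as for Rbbp7 with Txlng and Kdm1a with Luzp1. Setd2, which makes the trimethyl mark, was 9.96 and 5.34 FPKM, 1.87-fold lower (1.66 to 2.10). Nsd1 was 9.37 and 8.003 FPKM, 1.17-fold lower (1.07 to 1.28). Their relatives outside the 40 genes, Nsd2 (row Whsc1) and Nsd3 (row Whsc1l1), were 18.3 and 14.8 FPKM in WT against 9.02 and 8.01 FPKM in ESAM-null. The 3 NSD genes summed to 42.4 FPKM and 25.03 FPKM, of which Nsd1 made up 22.1% and 32.0%.

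Among the methylases of H3 lysine 9, the partners Ehmt1 (GLP) and Ehmt2 (G9a), which act as a dimer, differed in direction. Ehmt1 was 20.8 FPKM in WT against 13.6 FPKM in ESAM-null, 1.53-fold lower (1.38 to 1.70). Ehmt2 was 26.3 and 29.9 FPKM, 1.14-fold higher (1.04 to 1.24), a direction that reverses on the rescaled libraries. Ehmt2 was 1.26 times the level of Ehmt1 in WT and 2.202 times in ESAM-null, a 1.74-fold shift (1.52 to 2.0) that no scaling of whole libraries alters. Setdb1, which silences retroelements, was 13.5 and 10.6 FPKM, 1.27-fold lower (1.12 to 1.43).

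Transcript length moved with the ratios over the whole table. Genes up to 1000 bp had a median log2 ratio of 0.46, those of 2000 to 3000 bp 0.01, and those over 6000 bp -0.34. The 40 genes are long, with a median transcript of 3587 bp against 2712 bp (2711.5) for all expressed genes. The 5 members over 6000 bp (Ash1l, Setd2, Kdm6b, Asxl1 and Nsd1) had a median of -0.64, with a range of -1.08 to -0.23. Relative to genes of like length, an alternative chosen after the data were seen, the median of the 40 genes was -0.09 in place of -0.22, Cbx2 alone stayed 2-fold lower, and Ash1l had a log2 ratio of -0.67, Setd2 -0.52 and Nsd1 0.19. Genes at least 1.5-fold lower then numbered 3 (Cbx2, Ring1 and Ash1l) and genes at least 1.5-fold higher 2 (Rnf2 and Phc3). The share of all genes past 1.5-fold on this scale was not computed, so these counts have no background. Phc3 rests on about 37 and 57 reads, and its counting interval includes 1. The part of length in the results beyond this adjustment was not tested.

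**Figure D4:**
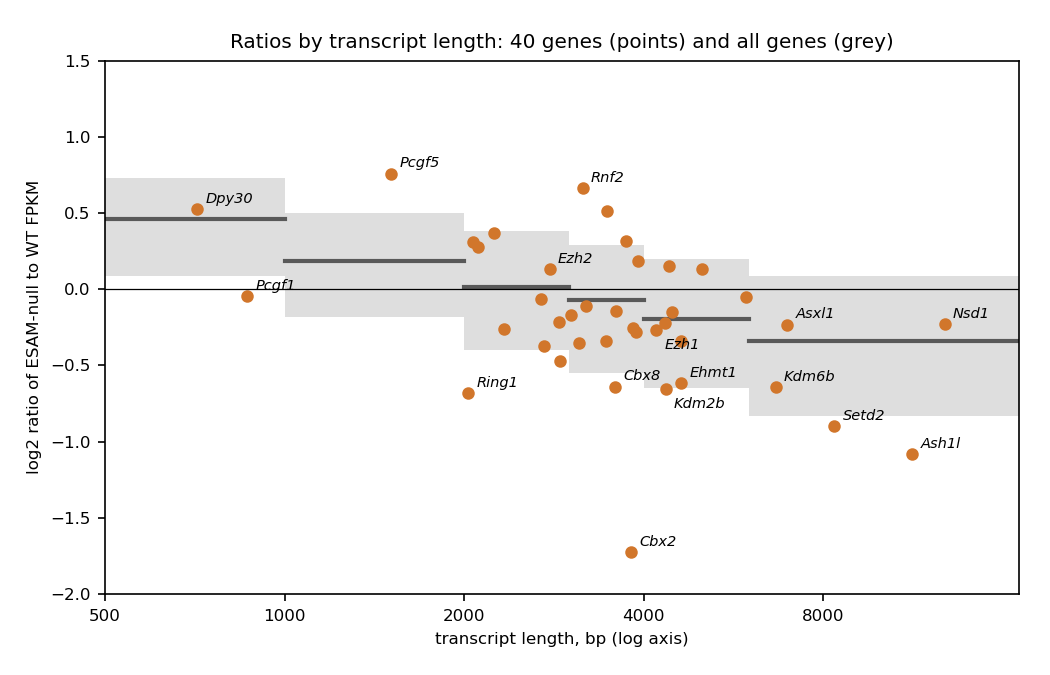
Log2 of the FPKM ratio (ESAM-null over WT) against transcript length (log axis) for the 40 genes (points), over the median (dark lines) and middle 50% (grey boxes) of all genes in 6 ranges of length. The medians step down from 0.46 under 1000 bp to -0.34 over 6000 bp. Dpy30, Nsd1 and most other points lie within the boxes, and Cbx2 lies far under its box.

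Beyond the 40 genes, a list of 79 other genes of these complexes and enzymes was read in the same way. Of these, 78 had a row and 75 had at least 1 FPKM in 1 library. In ESAM-null, 9 of 75 were at least 2-fold lower and 2 were higher, beside 12.8% and 7.42% of all genes. The median log2 ratio was -0.32, against 0.01 for all genes, and 60 of 75 ratios were below 1, against 50% of all genes. Neither of these was computed relative to genes of like length. Besides Phf1, the lower genes were Scml2, a PRC1-associated protein, at 2.74 and 0.189 FPKM (about 101 and 8 reads), the lysine 4 methylase row Mll2 at 5.35 and 2.55 FPKM, Nsd2, and Dot1l, the lysine 79 methylase, at 4.73 and 2.31 FPKM. Mll2 has been used for both Kmt2b and Kmt2d, and since Kmt2b has a row of its own (Wbp7), the row was read as Kmt2d. The other four were demethylases: Kdm4a was 12.2 and 3.04 FPKM, Kdm1b 2.97 and 0.591 FPKM, Kdm5c, which is X-linked, 10.3 and 4.57 FPKM, and Kdm3b 10.3 and 5.12 FPKM. The higher genes were Pcgf2 and Suv39h2, a lysine 9 methylase, at 7.11 FPKM in WT against 16.8 FPKM in ESAM-null, 2.36-fold higher (2.01 to 2.79). Its paralogue Suv39h1 was 37.2 and 27.1 FPKM. Kmt2a (row Mll1), the founding member of the MLL methylases, was 10.6 and 5.63 FPKM, 1.88-fold lower (1.74 to 2.04). Several of the lower genes have transcripts over 6000 bp, a range in which all genes had a median log2 ratio of -0.34. These were the Mll2 row (19823 bp), Nsd2 (6919 bp), Dot1l (6808 bp), Kdm5c (6449 bp) and Kdm3b (6363 bp), and also Kmt2a (16465.5 bp). Relative to genes of like length, 4 of the 75 were at least 2-fold lower and 2 were higher. The part of length in the ratios of the genes named here was not tested further.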

How the data were processed

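RNA-seq was performed on 1 WT and 1 ESAM-null library of E14.5 FL LSK CD48- cells, made with a very low input cDNA kit that does not mark strand. The authors made FPKM per gene from 75 bp single-end reads and deposited 1 value per symbol. Per the submitters' processing notes, Cuffnorm 2.2.1, SAMtools 0.1.19, TopHat2 2.0.13 and Bowtie2 2.2.3 were used with mm10. The annotation, the library normalization and the handling of reads that map to several places were not given in the sources used here.

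For each gene, the ESAM-null value was divided by the WT value, and genes past 2-fold and 1.5-fold were counted among those with at least 1 FPKM in 1 library. Reads were approximated from FPKM, the median length of RefSeq-linked GENCODE transcripts, and the worth of a read, with an assumed fragment length of 200 bp and SD of 80 bp. Among low genes with a single length, the share within 0.05 of a whole read was 64.2% for WT and 71.1% for ESAM-null. Shifts between paralogues have conditional exact 95% intervals of the odds ratio from these reads. Adjustment for length or GC subtracted a running median over the genes nearest in that measure. The calculation was run on simulated data drawn with the same assumed fragment and transcript lengths. It therefore could not test those assumptions or the effect of PCR copies. A gene of the pathway outside the 40 is not reported here and is left out of its list and family sums. Alternatives were other filters, pseudocounts, thresholds and scalings. The 40 genes and all lists were chosen with earlier results of these data known. The text names all 40 genes, Esam, other genes of the pathway past 2-fold or partners of a named gene, and listed context genes. Genes on the sex chromosomes outside the 40, the overlapping Apobec3, Dap3, Txlng and Luzp1 and context genes under 1 FPKM were named after their values were seen. Versions were matplotlib 3.10.9, scipy 1.17.1, pandas 2.3.3, numpy 2.4.6 and Python 3.11.15.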

Additional observations from a re-analysis of the deposited data

How the results depend on the processing

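No paired analysis was possible because each genotype has 1 library. Of the 40 genes, 2 were at least 2-fold lower and none higher in ESAM-null. The lower count was 1 with a pseudocount of 1, relative to genes of like length, or at 3-fold, and 8 at 1.5-fold, where 2 were higher. It was 3 after upper quartile scaling, rescaling to equal totals or adjustment for GC content. The median log2 ratio of -0.22 was -0.41 after upper quartile scaling, -0.50 after rescaling and -0.091 relative to genes of like length. Genes above 1 numbered 12, with 7 after rescaling, 16 relative to genes of like length and 13 relative to genes of like GC content. Of the other 75 genes of the pathway, 9 were lower and 2 higher. With a pseudocount of 1, 5 were lower, and at 5 FPKM or more 1 was higher. At 1.5-fold 26 were lower and 7 higher, beside 21.8% and 17.4% of all genes, and at 3-fold 4 and 1. After upper quartile scaling 16 were lower, after rescaling 19 were lower and 1 higher, and relative to genes of like length 4 were lower. The median log2 ratio of all genes was -0.18 after upper quartile scaling and -0.27 after rescaling. Shares of all genes were computed only at 2-fold and 1.5-fold on the values as deposited, so the other counts have no background beside them. The cause of these changes in counts and medians was not tested, beyond the fewer or more genes that a threshold or a common shift admits. Depth limits Phc3 and genes under 1 FPKM most.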

Other observations

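Genes that Polycomb is known to silence were mostly not detected in either library. No histone mark was measured, so the part of Polycomb in their absence was not tested. Of 30 developmental regulators and cell cycle inhibitors listed, among them Cdkn2a, Cdkn2b, Gata4, Pax2, Hand1 and Olig2, 23 were listed at 0 in both WT and ESAM-null. The summed FPKM of all 30 was 3.05 in WT and 3.65 in ESAM-null. Of these, 2 reached 1 FPKM, in opposite directions: Sox17, a transcription factor of fetal HSCs and endothelium, was 2.18 FPKM in WT against 0.8003 FPKM in ESAM-null (about 48 and 19 reads), and Isl1, a homeobox factor, was 0.503 and 1.93 FPKM (about 11 and 46 reads). Sox1 was listed at 0 in WT and at 0.712 FPKM in ESAM-null, on about 34 reads.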
